A study of Mus musculus with 15 samples.

Results

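The early growth response genes Egr1, Egr2 and Egr3, their co-repressor gene Nab2, and the growth factor independence genes Gfi1 and Gfi1b were followed through an induced change of pre-B cells into macrophage-like cells. The 6 genes were taken by name from a list, out of 22209 annotated mouse gene starts. At each gene, ChIP-seq tags were counted in 3 kb at the gene start and in 16 further windows of 3 kb on each side, which reach 49.5 kb from the start.

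The cells were C10, a single line derived from the HAFTL mouse pre-B cell line, which carries C/EBPαER-GFP, the myeloid transcription factor C/EBPα fused to an estrogen receptor domain. β-estradiol moves the fusion protein into the nucleus, and the induced cells were grown with IL-3 and CSF-1, so the effects of C/EBPα and of the cytokines cannot be told apart. H3K4Me1, H3K27Ac and H3K27Me3 were each profiled at 0, 3, 12, 24 and 48 h after induction, in 15 libraries with 1 library for each mark and time. All cells of the series carry the fusion protein, and the 0 h cells are uninduced. The paper reports weak C/EBPα binding in uninduced cells and proposes that the transgene is somewhat leaky. The 0 h baseline may thus not be free of C/EBPα activity.

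EGR proteins are zinc finger activators that immediate early signals switch on, and their genes carry binding sites for serum response factor. NAB2 binds EGR proteins and represses their target genes, and Nab2 is itself an EGR target. GFI1 and GFI1B are zinc finger repressors that recruit the demethylase LSD1 through a SNAG domain. In progenitors with PU.1 and C/EBPα, the EGR factors with NAB2 favour macrophages and GFI1 favours neutrophils, and each side represses the other. GFI1 also acts in early B cells, and GFI1B is best known from erythroid cells and megakaryocytes. H3K4Me1 marks enhancers, H3K27Ac marks active enhancers and promoters, and H3K27Me3 marks Polycomb-repressed chromatin.

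Identical tags were reduced to 1 per position, and libraries of a mark were then thinned to an equal depth, that of its smallest one. This depth was 10913733 (H3K4Me1), 15216488 (H3K27Ac) or 15338280 tags (H3K27Me3). A window was called marked when its count had a Poisson upper tail below 0.001 against the genome mean, which required 27 H3K4Me1 tags or 34 tags of either H3K27 mark. Changes are log2 ratios to 0 h after adding 5 tags to each count, and a change of at least 2-fold was called higher or lower. With 1 library per time there is no replicate check and no test. The 95% intervals are exact Poisson intervals for counts and exact conditional intervals for ratios, and cover counting error only. The markers of the starting and final cells moved with time. H3K27Ac at 8 B cell marker starts fell from 10222 tags in sum at 0 h to 3341 at 48 h, and all 8 were at least 2-fold lower, or 6 when libraries were scaled by the 1 kb bins of the genome marked at all 5 times. At 8 macrophage marker starts it went from 1120 to 5062 tags with 7 at least 2-fold higher. At 8 granulocyte marker starts it went from 713 to 2811 tags with 4 higher, and 2 of these 8 starts were marked at 0 h and 4 at 48 h. Of all starts, 5.38% were at least 2-fold higher in H3K27Ac at 48 h and 9.4% lower. At 6 erythroid and megakaryocyte marker starts it stayed between 118 and 190 tags in sum, with Gata1, which defines these lineages, at 0 to 4 tags and Klf1, an erythroid factor, at 68 to 103, marked at all 5 times and the largest part of the sum. Of these 6 starts 2 were marked at 0 h and 1 at each later time.

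The DNA at the Egr2 and Gfi1b starts and at selected flanking regions is shown first, because the measurements below refer to these stretches. The bases are from mm9. The Egr2 start (chr10:67000617, plus strand) and the Gfi1b start (chr2:28477502, minus strand) differ in base composition. Egr2 has 60.0% G and C over the 300 bases from 250 before to 50 after the start, and Gfi1b has 44.3%, against a median of 55.3% over all starts. The 250 bases before each start, at chr10:67000367-67000616 and chr2:28477503-28477752, are given along the strand of the gene, with capitals for the CArG box, the serum response factor motif.
Egr2 promoter: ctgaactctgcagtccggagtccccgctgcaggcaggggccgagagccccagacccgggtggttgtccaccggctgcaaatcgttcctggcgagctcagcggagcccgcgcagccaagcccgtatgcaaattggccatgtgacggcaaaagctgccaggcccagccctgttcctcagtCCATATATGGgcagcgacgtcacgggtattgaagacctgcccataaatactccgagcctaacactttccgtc
Gfi1b promoter: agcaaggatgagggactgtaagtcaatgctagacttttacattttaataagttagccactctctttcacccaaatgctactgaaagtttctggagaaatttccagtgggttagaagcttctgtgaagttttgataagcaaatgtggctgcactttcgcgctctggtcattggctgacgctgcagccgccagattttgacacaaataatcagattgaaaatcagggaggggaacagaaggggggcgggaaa

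The CArG box of Egr2 begins 72 bases before the start. Egr1 had 2 such boxes, beginning 105 and 83 bases before its start, and Egr3, Nab2, Gfi1 and Gfi1b had none in the 300 bases. A CArG box was found in 1.47% of all 22209 starts. Searches on both strands for the EGR motif (GCGNGGGCG), for PU.1 (GAGGAAG), for GFI (AATCACNGC and an overlapping longer form) and for AP-1 (TGANTCA) found no match in the 300 bases at any of the 6 starts. Matches were uncommon over all starts too, in 7.42% for EGR, 13.4% for PU.1, 1.03% and 2.72% for the short and long GFI forms and 6.80% for AP-1. The C/EBP motif (TTGCNNAA) was found once, at Gfi1, and in 10.2% of all starts.

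The flanking regions shown are the Gfi1 window richest in H3K27Ac at both 0 and 48 h, the Egr3 and Nab2 windows with the largest rise, and the Gfi1b windows richest at 0 h and with the largest fall. Within each 3 kb window the 300 bases with most H3K27Ac tags are given on the plus strand, at 48 h for rises and at 0 h for falls, with PU.1 matches in capitals. They lie at chr5:108179055-108179354 (24.4 kb upstream of Gfi1, inside Evi5), chr14:70507323-70507622 (30.2 kb downstream of the Egr3 start, in an intron of Bin3), chr10:127068575-127068874 (36.9 kb downstream of the Nab2 start, intergenic), chr2:28474967-28475266 (2.39 kb into Gfi1b, in an intron) and chr2:28458002-28458301 (19.4 kb downstream of the Gfi1b start, intergenic).
Gfi1 upstream: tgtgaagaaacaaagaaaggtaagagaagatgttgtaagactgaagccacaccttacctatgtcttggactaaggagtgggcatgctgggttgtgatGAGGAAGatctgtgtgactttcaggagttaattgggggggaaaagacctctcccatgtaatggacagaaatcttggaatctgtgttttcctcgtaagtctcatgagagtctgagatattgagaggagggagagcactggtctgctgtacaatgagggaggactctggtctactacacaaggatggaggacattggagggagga
Egr3 downstream, Bin3 intron: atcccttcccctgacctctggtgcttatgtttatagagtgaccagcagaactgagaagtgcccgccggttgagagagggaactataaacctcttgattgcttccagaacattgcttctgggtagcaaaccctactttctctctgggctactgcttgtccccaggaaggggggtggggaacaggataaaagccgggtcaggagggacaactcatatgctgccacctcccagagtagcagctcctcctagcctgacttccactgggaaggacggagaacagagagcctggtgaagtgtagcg
Nab2 downstream: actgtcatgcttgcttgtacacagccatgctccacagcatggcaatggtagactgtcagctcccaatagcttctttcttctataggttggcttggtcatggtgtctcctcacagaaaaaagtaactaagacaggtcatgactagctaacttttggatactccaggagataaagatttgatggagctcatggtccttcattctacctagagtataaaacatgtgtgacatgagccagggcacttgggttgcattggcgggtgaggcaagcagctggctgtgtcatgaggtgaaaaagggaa
Gfi1b intron: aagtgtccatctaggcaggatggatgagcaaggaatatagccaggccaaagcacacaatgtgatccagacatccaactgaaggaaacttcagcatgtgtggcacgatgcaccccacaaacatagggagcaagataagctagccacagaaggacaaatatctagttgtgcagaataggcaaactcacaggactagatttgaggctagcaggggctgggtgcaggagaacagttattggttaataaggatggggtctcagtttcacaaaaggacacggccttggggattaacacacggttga
Gfi1b downstream: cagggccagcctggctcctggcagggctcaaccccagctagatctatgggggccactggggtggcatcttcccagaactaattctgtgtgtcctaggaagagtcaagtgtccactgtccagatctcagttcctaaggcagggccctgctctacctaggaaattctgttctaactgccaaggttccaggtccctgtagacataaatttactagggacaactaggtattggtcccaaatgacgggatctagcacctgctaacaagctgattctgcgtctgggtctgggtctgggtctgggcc

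The Gfi1 upstream stretch held the 1 match among these 5, a PU.1 motif. Stretches from other windows were searched and are not printed. Those 30 kb upstream of Gfi1, its largest rise, 21 kb upstream of Egr3 and 12 kb upstream of Nab2 had no match. PU.1 matches lay 48 kb upstream of Egr2 and 15 kb upstream of Egr3, and an AP-1 match 33 kb upstream of Gfi1b. PU.1 matches occurred in 14.3% of the equally long stretches from 55881 flank windows that were marked at 48 h and at least 2-fold higher, and in 12.7% of those from 23460 windows that were marked at 0 h and at least 2-fold lower. For AP-1 these shares were 12.0% and 7.61%. A missing match says only that these letters are not in these bases.

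H3K27Ac was present at the 6 starts throughout. All 6 were marked by H3K27Ac at all 5 times, as were 46.3% of all starts at 0 h. None of the 6 was at least 2-fold changed at 48 h, when 5.38% of all starts were higher and 9.4% were lower. The median change over all starts at 48 h was -0.14 on the log2 scale. In these bulk samples, fewer cells with a mark and less mark per cell cannot be told apart. At the earlier times 1 start was higher at 3 h and 1 at 24 h, 0 were called at 12 h, and 0 were lower at any time. Of all starts, 1.83% were lower at 3 h and 8.82% at 24 h, and at 12 h 4.38% were higher and 3.29% lower. The plot of tags at the starts shows the counts of each gene for the 3 marks.

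**Figure D1:**
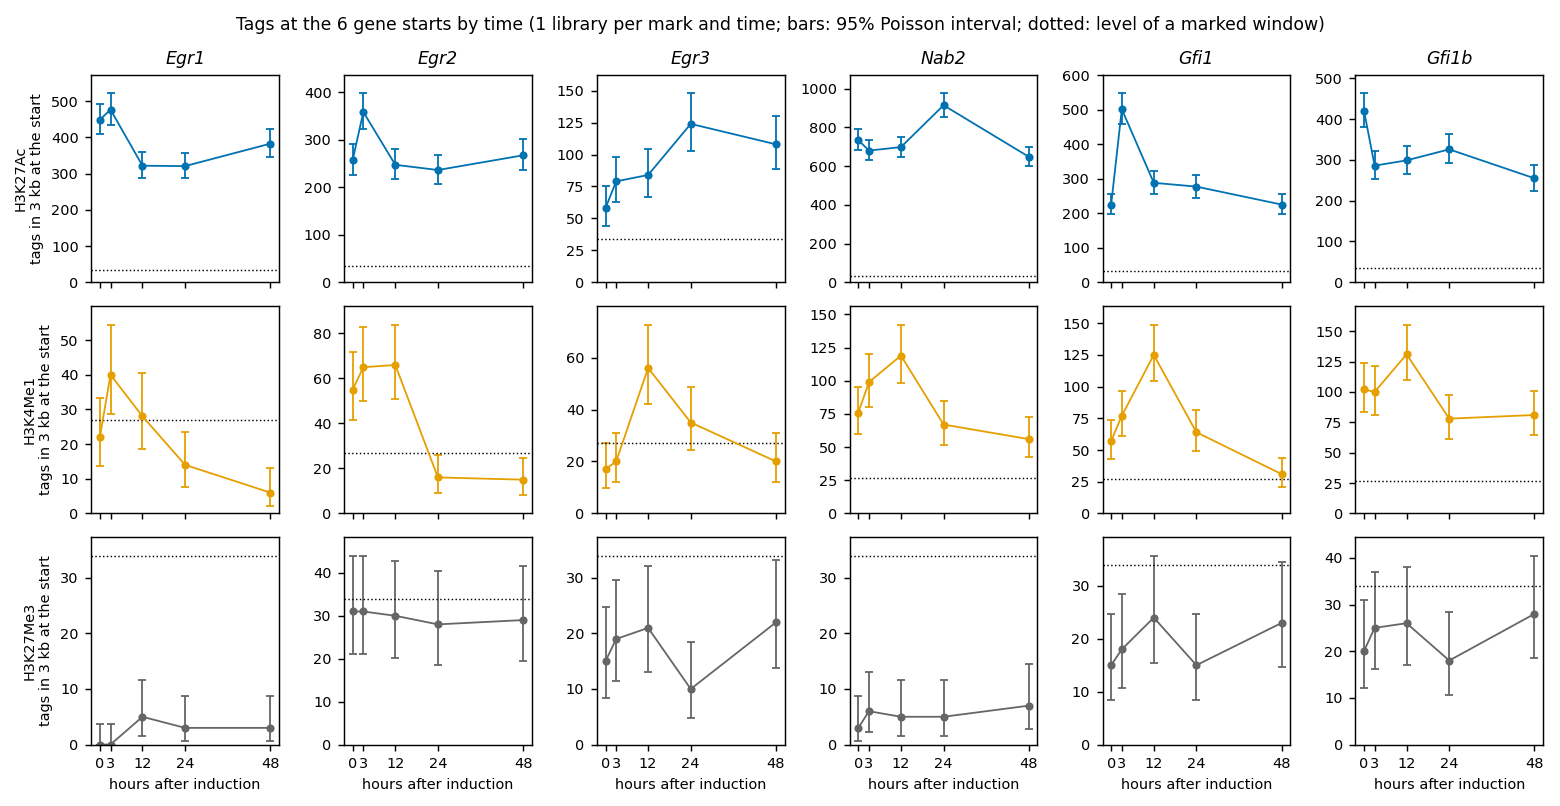
Tags in 3 kb at the start of each of the 6 genes (y axis, each panel on its own scale from 0) against hours after induction (x axis) for H3K27Ac, H3K4Me1 and H3K27Me3. Points are single libraries, bars are 95% Poisson intervals, and the dotted line is the count at which a window was called marked. The Gfi1 H3K27Ac point at 3 h (501 tags) stands above the other 4 times, and no H3K27Me3 point reaches the dotted line.

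Gfi1 had the largest early change among the 6. Its start (chr5:108154825, minus strand) held 225 H3K27Ac tags at 0 h, 501 at 3 h, 288 at 12 h, 277 at 24 h and 225 at 48 h. In these counts the 3 h library was the high one, and its interval of 458 to 547 tags did not meet that of any other time. The 3 h count was 2.20-fold above 0 h (log2 1.14, interval 0.93 to 1.39), in the 97.6th percentile of all starts and among the 4.26% that were at least 2-fold higher then. Scaled by background bins, the 1 kb bins marked in no library of the mark, which lowers the 3 h library by 0.28 on the log2 scale, the change stayed positive but was no longer 2-fold. The same scaling raises the 24 h library by 0.56, and the 3 h count then no longer stood clear of that at 24 h. At 48 h the unscaled difference from 0 h was 0.00, with an interval of -0.27 to 0.27. H3K4Me1 at the Gfi1 start peaked later, with 57 tags at 0 h, 77 at 3 h, 125 at 12 h, 64 at 24 h and 31 at 48 h. The 12 h value was 1.07 above 0 h on the log2 scale, a call that 3.1% of all starts shared and that was lost when scaled by bins marked at all 5 times. The annotation used here gives Gfi1 no protein-coding transcript, so its start was taken over all its transcripts, and a non-coding gene, A430072P03Rik, starts in the same window.

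Gfi1b went the other way at its start without a 2-fold change. Its H3K27Ac count was 421 at 0 h, 286 at 3 h, 299 at 12 h, 326 at 24 h and 255 at 48 h. In these counts the 0 h library was the high one, and its interval of 382 to 463 tags did not meet those of the later times. The change at 24 h was -0.36, and background bin scaling adds 0.56 at that time. With that scaling the 0 h count was no longer the highest. The change at 48 h was -0.71 (interval -0.95 to -0.50), and scaling by bins marked at all 5 times adds 0.41 at that time. Another annotated start, 6577 bp downstream and with no protein-coding transcript, held 60, 31, 30, 24 and 26 H3K27Ac tags. There the fall was at least 2-fold at 24 h (log2 -1.16) and at 48 h (log2 -1.07). The 24 h call was lost with background bin scaling, and the 48 h call with scaling by bins marked at all 5 times. H3K4Me1 at the Gfi1b start ranged from 78 to 131 tags and was not called at any time.

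Among the EGR activators, Egr1 (chr18:35020861, plus strand) and Egr2 started with strong H3K27Ac and Egr3 (chr14:70477252, plus strand) with weak H3K27Ac. Egr1 held 449, 477, 322, 321 and 383 H3K27Ac tags at the 5 times in order. Its lowest counts were at 12 and 24 h, with a change of -0.47 at 12 h (interval -0.69 to -0.27). Egr2 held 257, 358, 247, 236 and 267 tags. Its 3 h library was the high one, with a change of 0.47 (interval 0.24 to 0.72), against a median of 0.13 over all starts. With background bin scaling, which adds 0.56 at 24 h, the 24 h count was instead the highest at both Egr1 and Egr2. Egr3 held 58, 79, 84, 124 and 108 tags. It rose at least 2-fold at 24 h (log2 1.03, interval 0.64 to 1.57), which 4.68% of all starts did, and was 0.84 above 0 h at 48 h, or at least 2-fold when scaled by bins marked at all 5 times.

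H3K4Me1 fell at the Egr1 and Egr2 starts, where H3K27Ac was not called. Egr2 had 55, 65, 66, 16 and 15 H3K4Me1 tags at the 5 times, so the 24 and 48 h libraries lay below the level of a marked window. The change at 48 h was -1.58 and 3.00-fold lower. The window at the most 5′ annotated start of Egr2, 2394 bp upstream, held 21, 30, 36, 13 and 11 tags. Its change at 48 h was -0.70 and was not called. Egr1 had 22, 40, 28, 14 and 6 tags, 2.45-fold lower at 48 h. The Egr1 start was below the level of a marked window at 0 h as well. These 2 of the 6 starts were at least 2-fold lower in H3K4Me1 at 48 h and 0 were higher, against 9.55% and 3.34% of all starts. At 24 h 1 of the 6, Egr2, was lower, as were 6.76% of all starts. At 3 h 0 of the 6 were called, against 1.72% of all starts higher and 1.87% lower, and at 12 h 0 were lower, against 4.09%. Scaling by background bins, which raises the 48 h library by 0.55, left 1 of the 2 calls. Egr3 had 17, 20, 56, 35 and 20 H3K4Me1 tags, with a single peak at 12 h that was 2.77-fold above 0 h.

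Nab2, the co-repressor, had the most H3K27Ac of the 6 starts at every time. Its annotated starts are spread, and the window at chr10:127105624 (minus strand) held 734, 680, 698, 914 and 648 tags. The window at the start 1858 bp downstream, chr10:127103766, overlaps it and held 735, 637, 694, 923 and 649 tags. Both were highest at 24 h and neither was called. H3K4Me1 differed between them, with 76, 99, 119, 67 and 56 tags at the first and 60, 70, 41, 16 and 13 at the second, where the 48 h change was -1.85. The gene Tmem194 also starts in both windows, and in the window 3 kb downstream, so its share of these tags cannot be told apart from that of Nab2.

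In the order of H3K27Ac levels at 0 h, Nab2 was followed by Egr1, Gfi1b, Egr2, Gfi1 and Egr3. The intervals of Egr1 and Gfi1b overlapped, as did those of Egr2 and Gfi1. At 48 h the order was Nab2, Egr1, Egr2, Gfi1b, Gfi1 and Egr3, and the intervals of Egr2, Gfi1b and Gfi1 overlapped. Over the 15 libraries, the start closest to Gfi1 in log2 tag counts was that of Agap3, at a distance of 1.17, and those closest to Nab2 were Tkt, Gas2l3 and 4632404H12Rik, at 0.796 to 0.931. The starts closest to Gfi1b were Arl10, Dync1h1 and Sfxn5. The starts closest to Egr1 were Gyk, Hist1h2bb and Dcaf17, those closest to Egr2 were Dcaf10, Esco1 and Celf1, and those closest to Egr3 were Fam46d, Sepsecs and 1110058L19Rik. Gfi1 and Gfi1b were the closest pair among the 6, at 2.07, although their H3K27Ac moved in opposite directions at 3 h.

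H3K27Me3 was below the level of a marked window at all 6 starts and all 5 times. Egr2 came nearest, with 31, 31, 30, 28 and 29 tags against the 34 required. The window at the most 5′ annotated start of Egr2, 2394 bp upstream, held 41, 27, 38, 44 and 52 tags. It was thus marked at every time but 3 h. Egr1 had 0 to 5 tags and Nab2 3 to 7. Egr3, Gfi1 and Gfi1b had between 10 and 28. At 48 h, 18.4% of all starts were marked by H3K27Me3.

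The map of windows by time shows the flanks. Over the 192 flank windows of the 6 genes, 60 were at least 2-fold higher in H3K27Ac at 48 h and 25 were lower. Over the flank windows of all starts, 12.5% were higher and 5.58% were lower. With libraries scaled by bins marked at all 5 times, which raises H3K27Ac at 48 h by 0.41, the same 192 windows gave 77 higher and 17 lower, and the shares of all flank windows were then 19.4% and 3.44%. Of the 60 windows, 43 were marked at 48 h, and all 25 lower ones had been marked at 0 h. Windows of these 2 kinds made up 7.87% and 3.31% of all flank windows. The gains became more numerous at each later time, and the losses did not. At 3 h 19 windows were higher and 20 lower in H3K27Ac, against 4.99% and 3.2% of all flank windows. At 12 h these counts were 37 and 14, against 7.22% and 3.43%, and at 24 h 46 and 25, against 7.61% and 9.22%. Over the 6 genes together, the shares of higher and of lower windows were both above those of all flank windows at each time, but the loci differed. The lower windows made up 10.4%, 7.29%, 13.0% and 13.0% at 3, 12, 24 and 48 h. At 0 h, 70 of the 198 windows of the 6 genes (35.4%) were marked by H3K27Ac, against 13.5% of all windows. At 3 h the lower windows were at Gfi1b (11) and Egr3 (9), and the higher ones at Gfi1 (11), Egr3 (4), Egr2 (2) and Nab2 (2). Egr1 and Gfi1b had 0 higher windows at 3 h and at 12 h, and 1 each at 24 h.

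For H3K4Me1, 52 windows were higher and 20 lower at 48 h, against 8.47% and 10.3% of all flank windows. With background bin scaling 73 were higher and 10 lower, against 14.4% and 5.18% of all flank windows. Of the 60 windows higher in H3K27Ac, 41 were also higher in H3K4Me1, which was 68.3% of the former and 78.8% of the latter. The same shares over all flank windows were 49.2% and 72.4%. Few H3K4Me1 windows were called at the first time. At 3 h 2 windows were higher and 2 lower, against 1.13% and 3.33% of all flank windows. At 12 h 29 were higher and 14 lower, against 4.26% and 8.31%, and at 24 h 39 and 12, against 6.81% and 9.5%.

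**Figure D2:**
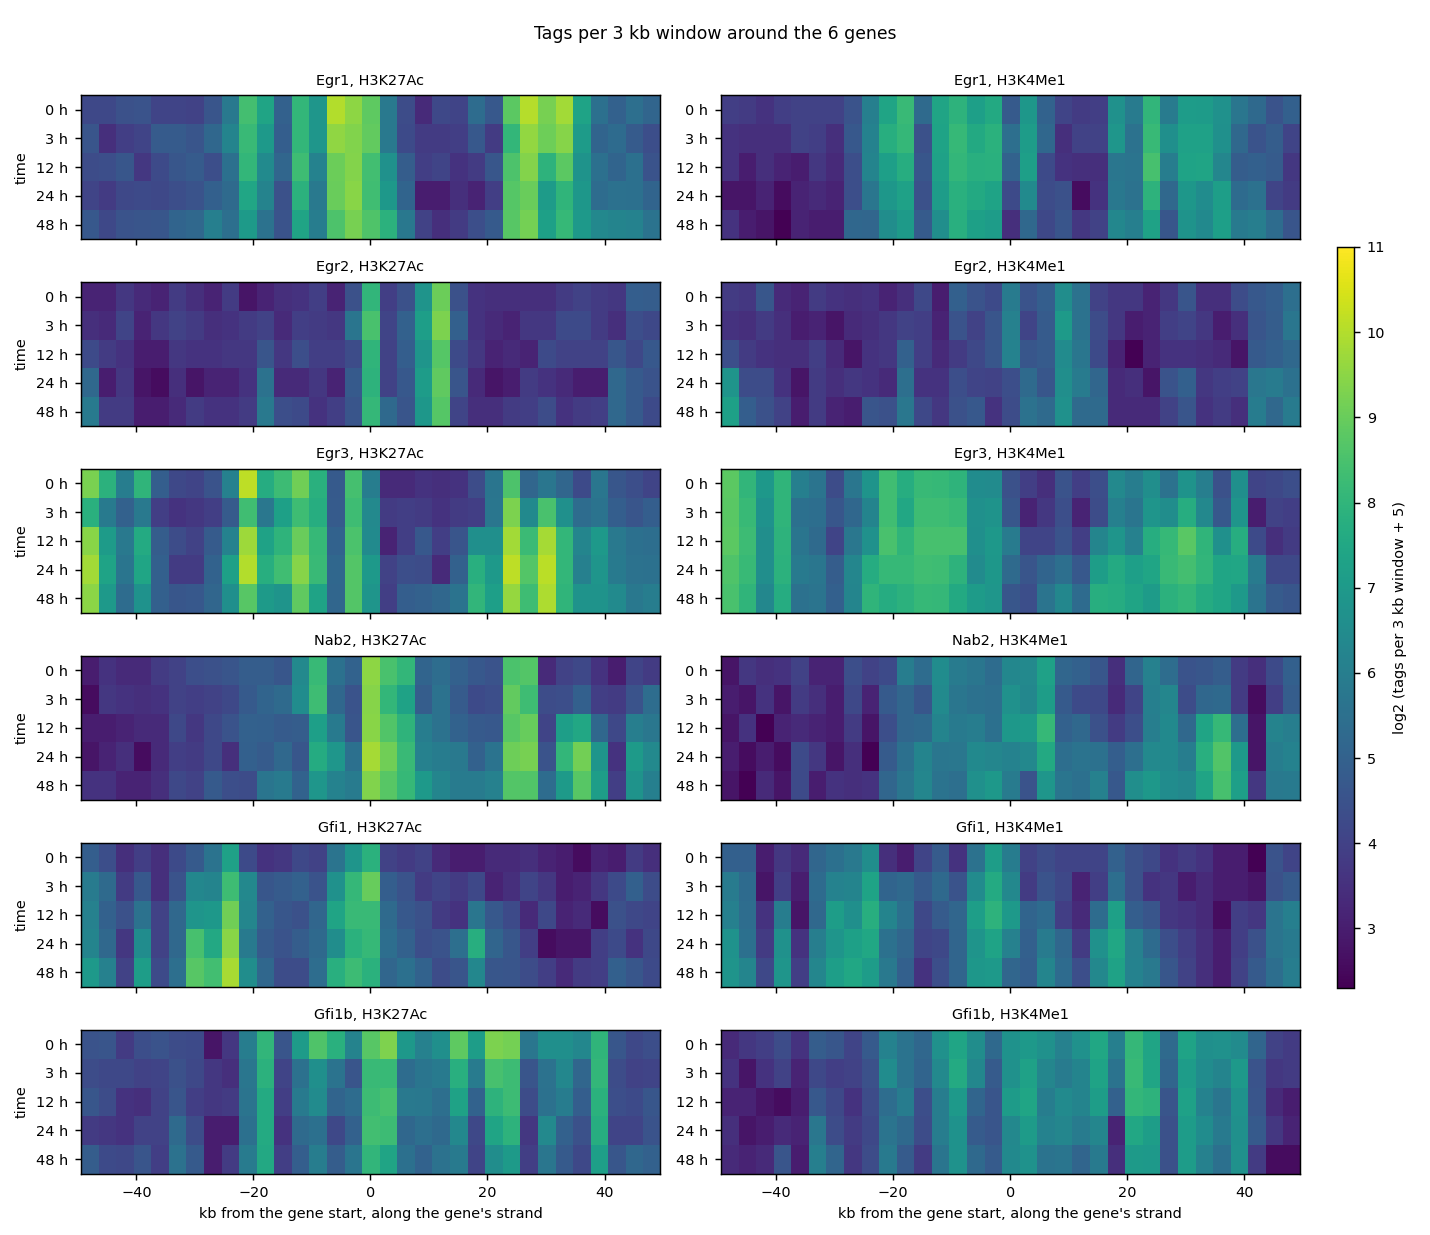
Tags per 3 kb window (colour, log2 of tags + 5) over 49.5 kb on each side of the 6 gene starts (x axis, kb along the strand of the gene) at 0, 3, 12, 24 and 48 h (rows), for H3K27Ac on the left and H3K4Me1 on the right. In H3K27Ac, Gfi1 brightens upstream from 3 h on, Gfi1b darkens on both sides of its start, and Nab2 brightens downstream from 12 h on. Downstream of Egr3, the window at 30 kb is brighter in H3K27Ac from 3 h on.

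Gfi1 gained H3K27Ac around its start. Summed over the 33 windows, it held 815 tags at 0 h, 1824 at 3 h, 2114 at 12 h, 2671 at 24 h and 3337 at 48 h. Every later library was above the one before it in these counts. With background bin scaling the 24 h change (log2 2.27) was above that at 48 h (log2 1.95). The gain at 48 h was 4.08-fold (log2 2.03, interval 1.92 to 2.15), in the 98.1st percentile of all loci, of which 7.99% gained at least 2-fold. At 3 h it was already 2.23-fold, in the 98.8th percentile, and 0.87 on the log2 scale with background bin scaling. Of its 32 flank windows, 22 were higher and 0 lower in H3K27Ac at 48 h, and 9 of the 22 had passed 2-fold by 3 h. Over the flank windows of all starts, 15302 of the 88564 higher at 48 h had done so by 3 h. Of the 22, 13 were marked at 48 h, and the others rose below the level of a marked window.

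The gain lay mainly upstream, inside the neighbouring gene Evi5. The window 24 kb upstream (chr5:108177325-108180324) was the richest flank window at 0 h and at 48 h, with 151, 311, 544, 691 and 917 H3K27Ac tags. H3K4Me1 was there from the start, with 89, 159, 213, 174 and 132 tags. Its PU.1 match is in the stretch printed above. The window 30 kb upstream had the largest rise at this gene (log2 3.98), with 22, 75, 108, 350 and 420 H3K27Ac tags and 41, 67, 135, 109 and 140 H3K4Me1 tags. Closer to the gene, 6 kb upstream, H3K27Ac went from 45 to 214 tags, and 3 kb upstream from 110 to 303. Downstream, the window at 18 kb held 3, 13, 47, 211 and 76 tags and was highest at 24 h. The window 39 kb upstream had the largest rise in H3K4Me1, from 8 to 109 tags. Over the 33 windows H3K4Me1 went from 745 to 1898 tags (log2 1.34), in the 97.5th percentile. H3K27Me3 over the same windows was 755, 840, 1037, 1045 and 945 tags, highest at 24 h (log2 0.47, interval 0.33 to 0.61, in the 98.7th percentile), and marked 7, 8, 10, 14 and 13 of the 33 windows. At 48 h the H3K27Me3 sum was higher by log2 0.32 (interval 0.18 to 0.46, in the 92.2nd percentile), or by 0.16 when scaled by bins marked at all 5 times.

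Gfi1b lost H3K27Ac over its surroundings, beginning at 3 h. The 33 windows held 4985 tags at 0 h, 2697 at 3 h, 2484 at 12 h, 2068 at 24 h and 1682 at 48 h. Every later library was below the one before it. The 48 h value was 2.96-fold lower (log2 -1.56, interval -1.65 to -1.49), in the 1.54th percentile of all loci, of which 5.66% lost at least 2-fold. The loss at 3 h was -0.89, in the 1.76th percentile, while the median locus was at 0.11. By 48 h, 14 of the 32 flank windows were lower in H3K27Ac and 2 were higher.

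The losses flanked Gfi1b on both sides, and the starts of its neighbours were not called. In its own intron 3 kb downstream of the start, the richest flank window at 0 h, H3K27Ac fell from 633 to 161 tags, with 282, 349 and 305 tags between. At 18 kb downstream (chr2:28458002-28461001) the counts were 137, 55, 28, 13 and 12, the largest fall (log2 -3.06), and H3K4Me1 fell there from 61 to 6 tags. The windows on either side of it fell from 450 to 54 and from 619 to 90 tags. Upstream, the windows at 9 and 6 kb fell from 387 to 58 and from 222 to 24. Most of the loss 9 and 6 kb upstream was present at 3 h, with 94 and 44 tags. The window with the start of Tsc1, which encodes a subunit of the complex that restrains mTOR, held 258 tags at 0 h and 181 at 48 h and was the richest flank window at 48 h. The start of Gtf3c5, which encodes a TFIIIC subunit, went from 250 to 143. Neither was called. H3K4Me1 over the 33 windows went from 2315 to 1416 tags (log2 -0.71, or -0.16 with background bin scaling), in the 21.5th percentile. H3K27Me3 marked 0 of the 33 windows at 0 h and 2 at 48 h. The largest rise at this locus, 33 kb upstream in an intron of Tsc1, went from 15 to 43 H3K27Ac tags and from 24 to 62 H3K4Me1 tags.

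**Figure D3:**
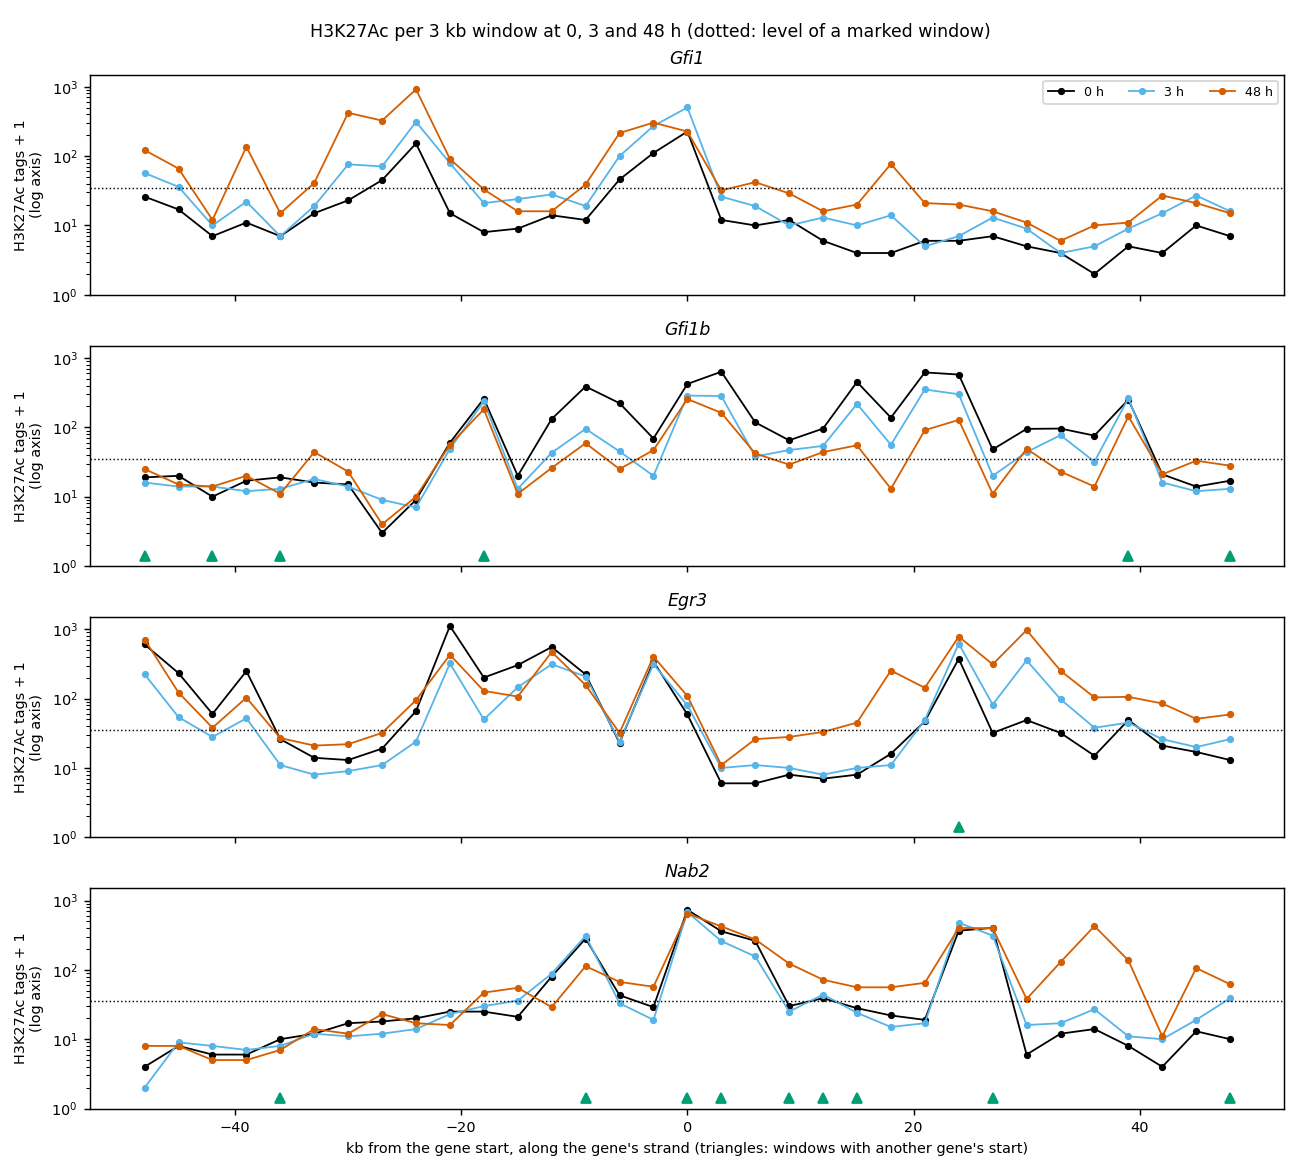
H3K27Ac tags + 1 per 3 kb window (y axis, log scale) against distance from the gene start in kb (x axis) at Gfi1, Gfi1b, Egr3 and Nab2, at 0 h (black), 3 h (light blue) and 48 h (orange). The dotted line is the level of a marked window, and triangles are windows with an annotated transcript start of another protein-coding gene. Black lies below orange over most of Gfi1 and above it over the middle of Gfi1b, and at Egr3 and Nab2 they part downstream.

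Egr3 changed differently on its 2 sides. Upstream, the window 21 kb away in an intron of Pebp4 was the richest at 0 h, and held 1114, 321, 836, 1013 and 427 H3K27Ac tags. The 3 h library was the low one there, and 9 of the 32 flank windows were at least 2-fold lower at 3 h, against 3.2% of all flank windows. At 48 kb upstream H3K27Ac was 602, 223, 696, 875 and 710 tags, while H3K4Me1 was 443, 436, 442, 387 and 356. H3K27Ac was thus low at 3 h there while H3K4Me1 was not. The largest fall to 48 h was 15 kb upstream, with 303, 145, 241, 316 and 106 tags (log2 -1.47).

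Downstream of Egr3 H3K27Ac rose. At 30 kb, in an intron of Bin3 (chr14:70505752-70508751), the counts were 48, 355, 909, 1093 and 970, the largest rise and the richest window at 48 h (log2 4.20, interval 3.92 to 4.79). The 0 h library was the low one by a wide margin, and the rise was visible at 3 h. H3K4Me1 there went from 104 to 431 tags at 12 h and 262 at 48 h. The window at 18 kb, which is intergenic, went from 15 to 253 H3K27Ac tags, and it was still at 10 tags at 3 h. The largest rise in H3K4Me1 was 15 kb downstream, from 16 to 210 tags. The start of Bin3, at 24 kb, went from 374 to 783 tags. In all, 15 flank windows were higher and 3 lower at 48 h, or 16 and 1 when scaled by bins marked at all 5 times. The sums over 33 windows were 4772, 3265, 6637, 8140 and 6238 tags, so the gains and losses partly cancelled (log2 0.39 at 48 h, in the 77.1st percentile).

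At Nab2 the largest gains lay beyond its neighbour Stat6, the transcription factor gene of the IL-4 response. At 36 kb downstream (chr10:127068124-127071123), in intergenic sequence, H3K27Ac was 13, 26, 178, 562 and 427 tags, the largest rise at any of the 6 genes (log2 4.58, interval 4.25 to 5.96). The 0 and 3 h libraries were below the level of a marked window and the 3 later ones far above it. H3K4Me1 rose in parallel with 24, 34, 274, 391 and 348 tags. H3K27Me3 in this window was 83, 82, 66, 36 and 30 tags, so it was marked until 24 h and not at 48 h. The window with the most 5′ start of Stat6, at 27 kb, was the richest flank window at 0 h and held 402 tags then and 397 at 48 h. The largest fall in H3K4Me1 was 3 kb downstream of the Nab2 start, from 80 to 18 tags. Upstream, the Tmem194 windows at 9 and 12 kb fell from 282 to 112 and from 79 to 28 tags. The sums over 33 windows were 2906, 2740, 3311, 4793 and 3880, with 10 flank windows higher and 2 lower at 48 h, or 15 and 0 when scaled by bins marked at all 5 times.

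At Egr1, windows rich in H3K27Ac at 0 h fell on both sides of the start, while others rose. The sums over 33 windows were 6684, 5494, 4559, 3964 and 4153 tags, the most of the 6 loci at 0 h (log2 -0.69 at 48 h, in the 12.6th percentile, or -0.27 when scaled by bins marked at all 5 times). The window 27 kb downstream, in intergenic sequence, was the richest at 0 h and held 1051, 761, 659, 515 and 582 tags. Next to it, at 30 kb, the counts were 591, 540, 238, 130 and 148, the largest fall (log2 -1.96), while H3K4Me1 there was 132, 150, 156, 114 and 104. At 6 kb upstream H3K27Ac fell from 1011 to 371 tags, and at 3 kb upstream, the richest window at 48 h, it went from 733 to 585. The window 3 kb downstream of the start, over the Egr1 gene and the start of Gm17507, had the largest rise, with 52, 51, 99, 119 and 232 H3K27Ac tags, while H3K4Me1 fell there from 116 to 33. Over the locus, 6 flank windows were higher and 6 lower at 48 h, or 8 and 4 when scaled by bins marked at all 5 times.

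Of the 6 genes, Egr2 had the fewest flank windows called in H3K27Ac at 48 h, 5 of 32 and all higher, and at 0 and 48 h the most H3K27Me3 tags over its 33 windows. Of all flank windows, 12.5% were higher and 5.58% lower in H3K27Ac. At Egr2 3 of the 5 were marked at 48 h, which was 9.4% of its flank windows, against 7.87% of all. Of its 33 windows, 3 were marked by H3K27Ac at 0 h and 6 at 48 h. Among the 732897 windows of all starts, 99164 (13.5%) were marked by H3K27Ac at 0 h and 146862 at 48 h. The richest flank window held the start of Ado, at 12 kb, with 518 tags at 0 h and 414 at 48 h. The largest rise was 48 kb upstream, in intergenic sequence, with 4, 6, 14, 33 and 54 H3K27Ac tags and 9, 7, 16, 106 and 145 H3K4Me1 tags. H3K27Me3 marked 15 windows at 0 h, 14 at 3 h and at 12 h, 18 at 24 h and 23 at 48 h. The H3K27Me3 sums went from 1037 to 1416 tags (log2 0.45, interval 0.33 to 0.57, in the 97.0th percentile). Scaled by bins marked at all 5 times the change was 0.29, and scaled by background bins 0.56. Over the windows of all starts, 20.2% were marked by H3K27Me3 at 0 h and 22.8% at 48 h.

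**Figure D4:**
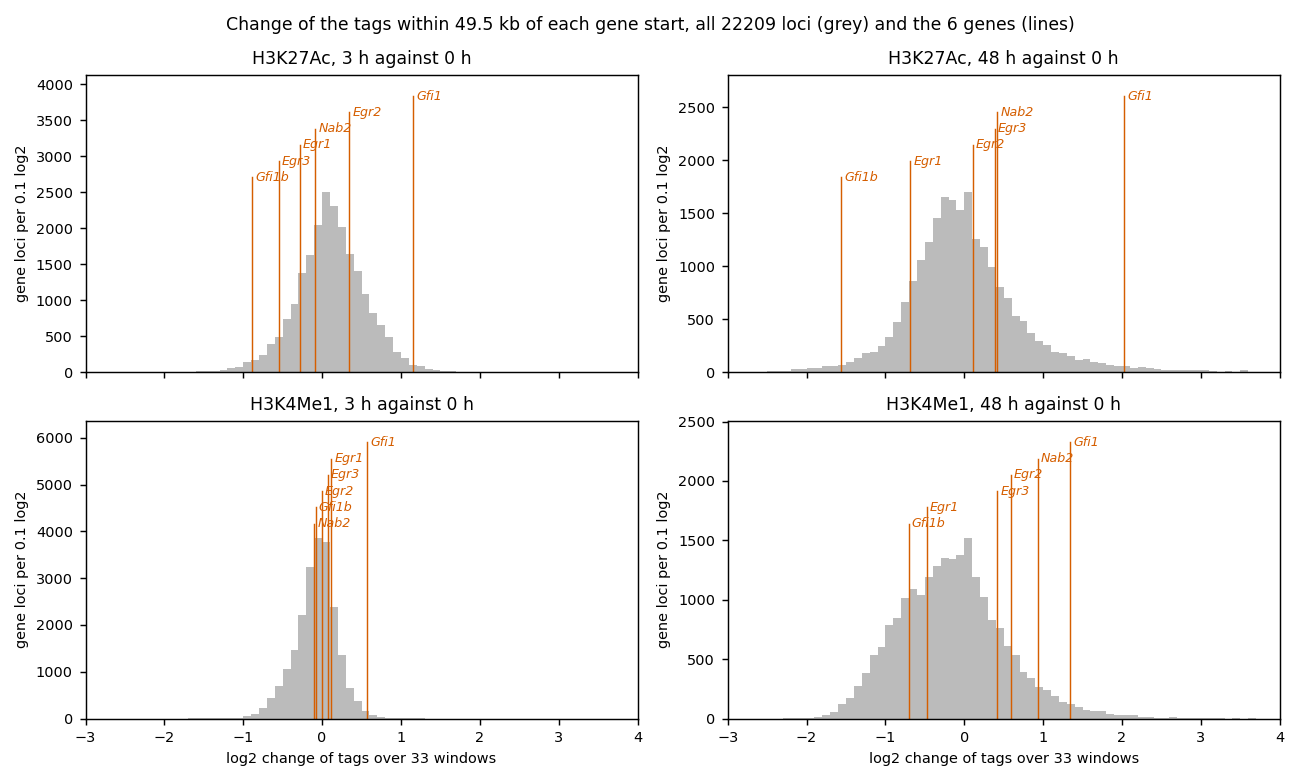
Log2 change of the tags summed over 33 windows (x axis) for all 22209 loci (grey, number per bin of 0.1) and for the 6 genes (orange lines), for H3K27Ac and H3K4Me1 at 3 h and 48 h against 0 h. Gfi1 is the rightmost of the 6 in all 4 panels, and Gfi1b is the leftmost of the 6 in H3K27Ac at both times.

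The genes of the same circuit were read at their starts from lists of names. Among 16 partners of the EGR and GFI proteins, 0 were higher and 3 lower in H3K27Ac at 48 h, when 5.38% of all starts were higher and 9.4% lower. The list had a median of -0.38 that turned to 0.02 when scaled by bins marked at all 5 times. The largest falls were at Elk3 (457 to 180 tags), a ternary complex factor that works with serum response factor, and at Mkl1 (162 to 65), a serum response factor co-activator. Ajuba, a LIM protein that binds GFI1, was the third, and none of the 3 passed 2-fold when scaled by bins marked at all 5 times. Kdm1a, which encodes LSD1, went from 181 to 103 tags, and Nab1, the paralog of Nab2, from 548 to 352, neither of them called. The 6 genes that every cell uses had a median of -0.53 (-0.12 with that scaling) with 0 called in either direction.

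In a list of 12 lineage factors and receptors of the B cell to macrophage switch, 2 were higher and 6 lower at 48 h, against the same 5.38% and 9.4% of all starts. Csf1r, the macrophage colony-stimulating factor receptor, went from 50 to 252 tags, and Csf3r, the granulocyte receptor, from 6 to 21, which is below the level of a marked window. Pax5, the B cell identity factor, fell from 1331 to 351. The count at Cebpa fell from 98 to 36, where tags from the introduced C/EBPα sequence cannot be told apart from the gene. Spi1, which encodes PU.1, stayed high, at 1320 tags at 0 h and 1191 at 48 h. Scaled by bins marked at all 5 times, Pax5 was the 1 gene still called lower, and both receptors were still called higher.

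Among 20 other immediate early genes, 2 were higher in H3K27Ac at 3 h and 4 at 48 h, with 1 lower at 48 h. Of all starts, 4.26% were higher at 3 h, and 5.38% were higher and 9.4% lower at 48 h. The 3 h rises were at Fosl2, an AP-1 subunit (205 to 544 tags), and at Nr4a1, an orphan nuclear receptor (114 to 281). At 48 h the largest rises were at Fosl2 (860 tags) and Fosl1 (18 to 46), and the fall was at Dusp2, a MAP kinase phosphatase (1241 to 411). The list median at 3 h was 0.39, against 0.13 over all starts, while Egr1 was at 0.09, Egr2 at 0.47 and Egr3 at 0.42 at that time.

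The markers of other cells, whose part in these results was not tested, moved as follows. At 3 h, Cd79b was called lower among the B cell markers and Cd14, Lyz2, Mmp12, Il1b and Msr1 were called higher among the macrophage markers, with Mmp12 (31 tags) and Msr1 (7 tags) still below the level of a marked window. Of all starts, 4.26% were higher and 1.83% lower at 3 h. Msr1 and Il1b had the largest rises at 48 h, from 1 to 442 and from 20 to 893 tags. Among granulocyte markers, Camp and Mmp8 rose most, from 12 to 1008 and from 37 to 1213 tags, Elane, Ltf, Camp and Mmp8 were called higher at 3 h, Ltf at no more than 16 tags, and Mpo stayed at 4 to 6 tags. At 48 h Elane, Camp, Mmp8 and Csf3r were called higher and 0 lower. Prtn3, Ctsg, Mpo and Ltf were not called at 48 h. Among 6 T cell markers, 1 was lower at 48 h, Tcf7 (118 to 39 tags), when 9.4% of all starts were lower and 5.38% higher. Among the 6 erythroid and megakaryocyte markers, 1 was higher, Itga2b (3 to 16 tags, below the level of a marked window). Which gene any flanking window acts on was not tested, since windows were assigned by distance alone.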

How the data were processed

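ChIP-seq tag positions were analysed for C10 cells, with 1 library per mark and time. Per the labels the authors aligned reads to mm9 with Bowtie, whose version is not given in the sources used here. The deposited files hold 36 bp tag coordinates, not counts per gene, with 11041458 to 31557475 lines per library. The H3K27Me3 libraries of 0 and 48 h held no repeated position as deposited, and the other 13 did. In 3 libraries, 2 closing lines without a position were dropped, and 3 tags past a chromosome end were left out.

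Tags were reduced to 1 per position on chromosomes 1 to 19 and X, placed at their middle and thinned to the smallest library of the mark with a fixed seed. PCR copies are otherwise unmarked. Starts came from GENCODE vM1 on the same build, and each gene's start was the one shared by most of its protein-coding transcripts, with ties to the most 5′. Changes are log2((later + 5)/(0 h + 5)). No test was possible with 1 library per group, so called means at least 2-fold. The change call and the ratio interval were tested on simulated Poisson counts, and the tag counting on a small fixed example. Named windows were those with most H3K27Ac at 0 h and at 48 h and with the largest called rise and fall in H3K27Ac or H3K4Me1 per gene, and windows beside them were named after their values were seen. Named list genes were the 2 largest called rises and falls at 48 h and those called at 3 h. Likeness was the Euclidean distance over the 15 log2 counts, for starts at least 10 kb apart, with the 3 closest named per gene, of which some are not reported here. Levels of genes not chosen by this rule (Kdm1a, Nab1, Ajuba, Spi1, Gata1, Klf1, Mpo) were added after their values were seen. The members and lists were chosen with earlier results of these data known. Alternatives were another thinning draw, all tags scaled by total, identical tags kept, background and shared bins for scaling, other window sizes, grids, starts, pseudocounts, filters and thresholds. Analyses used Python 3.11.15, NumPy 2.4.6, SciPy 1.17.1, pandas 2.3.3, pysam 0.24.0 and matplotlib 3.10.9.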

Additional observations from a re-analysis of the deposited data

How the results depend on the processing

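No paired analysis was possible because a single library stood for every time point of a mark. Over 13 alternatives, 1290 values were recomputed, and 1135 of them stayed within the counting interval or, for counts, within 1.5 times. Background bin scaling moved log2 changes at 3, 12, 24 and 48 h by -0.28, -0.14, 0.56 and -0.07 for H3K27Ac and by 0.30, 0.63, 0.64 and 0.55 for H3K4Me1, and scaling by bins marked at all 5 times by 0.13, 0.16, 0.02 and 0.41 and by -0.17, -0.26, -0.09 and 0.06. The number of the 6 starts at least 2-fold higher in H3K27Ac at 3 h was 1, and it was 0 with background bin scaling and 2 in 1 kb windows. At 48 h it was 0, and 1 with scaling by bins marked at all 5 times, and in 6 kb windows 1 start was lower in place of 0. In H3K4Me1, 0 starts were higher at 3 h, but 1 with background bin scaling and 1 in 1 kb windows. The 2 starts lower in H3K4Me1 at 48 h became 1 with background bin scaling, 6 kb windows, 1 kb windows or the most 5′ start, and the 20 lower flank windows became 10 with background bin scaling. Few H3K27Me3 flank windows were called, 4 higher and 4 lower of 192 at 48 h, against 1.3% and 1.91% of all flank windows. The 4 higher flank windows at 48 h became 2 with all tags and 11 with a pseudocount of 1, and the 4 lower ones became 8 in another thinning draw, 2 with background bins or the shifted grid, 16 with a pseudocount of 1 and 1 with at least 20 tags. With a pseudocount of 1, 2 starts in place of 0 were higher in H3K27Me3 at 48 h, and 25 in place of 38 windows of 198 were marked at 0 h with a Poisson tail below 1e-05, where 20.2% of all windows were marked at the main threshold. The H3K27Me3 change of Egr1 at 12 h, which rests on 0 and 5 tags, was -0.42 in another draw, the 1 reversal. The start of the largest group of starts within 500 bp was tried after seeing the data and raised the starts lower in H3K4Me1 at 48 h from 2 to 3, Nab2 being the third. Beyond the draw of tags and the tags counted, the causes were not tested. A second library per time would be needed to judge any change against replicate error.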
